A study of Homo sapiens with 6 samples.

Results

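The proteasome subunit genes were followed across 6 averaged expression profiles of HEK293 cells, a line from human embryonic kidney. Members were the array rows whose only gene symbol in the platform annotation was PSMA, PSMB, PSMC, PSMD, PSME, PSMF or PSMG followed by a number, which gave 35 genes of the 12448 genes with a row of their own. Each member had 1 row. The 3 lines were derivatives with tet-on expression on a pcDNA-FRT background. One carried an empty vector (vector line), one wild-type APE1 (wtAPE1 line) and one a fusion of ubiquitin to APE1 (ubAPE1 line), APE1 being an endonuclease of base excision repair. Each line was sampled without doxycycline (dox -) and after a 16 h exposure to the drug at 2 µg/ml (dox +), and puromycin at 1 µg/ml was in the medium of all 6 cultures. Each of the 6 groups is 1 column in which the authors had already averaged 3 biological replicates, so the spread between replicates is unknown and this number limits the precision of every value. The sources used here do not say whether a line was 1 clone.

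The proteasome is the protease that degrades ubiquitin-tagged proteins. Its core is a barrel of alpha and beta rings, in which the catalytic beta subunits face an inner chamber. A regulatory particle caps the barrel: its base holds a ring of ATPases that unfold the substrate, and its lid removes the ubiquitin chain. Other caps, the PSME activators, open the barrel without ATP, and the chaperones PSMG and some PSMD proteins help to build the parts. Cells tend to make subunits in matched amounts, and the transcription factor NFE2L1 raises their genes together when proteasome activity is low. Interferon exchanges the standard catalytic subunits for immune ones and raises PSME1 and PSME2.

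Of 48 genes in the list of subunits, activators and chaperones, 35 had a row of their own, 4 occurred only in rows with several symbols (PSMB9, PSMD14, PSMG2 and PSMG4), and 9 were not analysed here. All values are log2 levels per row after each column was shifted to a common median, by -0.12 to 0.13 log2, so that a difference is relative to the median row. A row level cannot be set against that of another gene. Rows with a mean at or above 5.03 log2 were kept, which left 11619 rows and 34 of the 35 members. The member left out, PSMB8, is the immune counterpart of PSMB5. In the vector line it lay at 3.92 untreated and 3.94 treated, at 4.23 and 3.93 in the wtAPE1 line and at 4.00 and 4.04 in the ubAPE1 line, low in every sample. Since these are bulk cultures, fewer expressing cells and less RNA per cell cannot be told apart.

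The columns correlated with each other at 0.950 to 0.990 over the kept rows. The ubAPE1 column without doxycycline stood closer to every column of the other lines (0.973 to 0.985) than to the treated column of its own line (0.971). The closest was the treated wtAPE1 column (0.985). The treated ubAPE1 column stood closer to both wtAPE1 columns (0.988 and 0.990) than to its own untreated column, but further from both vector columns (0.956 and 0.950). Every ubAPE1 response rests on this pair of columns. The untreated wtAPE1 column stood about as close to the treated ubAPE1 column (0.988) as to its own treated column (0.987). APEX1, the gene of APE1, responded to doxycycline by 0.18 log2 in the vector line, 1.09 for wtAPE1 and 0.92 for ubAPE1. Of 11 kidney and epithelial markers, 10 passed the level filter, CDH1 did not, EPCAM, KRT19, LRP2 and MAL2 were lower in both APE1 lines, and LHX1 was higher in the wtAPE1 line. Of 3 neuronal-like markers ENO2 and NEFL were lower, and of 4 fibroblast and smooth muscle markers COL3A1 was higher, in both APE1 lines. Of 5 blood markers measured, CD3E, CD14 and HBB were under the filter. CD8A (5.40 to 5.94 log2) and CD68 (6.13 to 6.73) were above it and did not pass the threshold between the lines.

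The sequences before the start sites of 4 members are shown. PSME1 and PSME2 differed between the lines, and PSMB3 and PSMD8 responded to doxycycline in opposite directions in different lines. PSMB6 and PSMD4, which had wider swings, had no start region to show. Each is the 250 bases before the start site in RefSeq (GRCh38.p14), 5′ to 3′ on the strand of the gene. Capitals mark matches on either strand to TGACNNNGC, the core of the antioxidant response element that NFE2L1 binds, to CCAAT, the box bound by NF-Y, and to GAAA, any 2 bases and GAAA again, the core of an interferon response element. The third motif was added after the values had been seen. No match shown overlaps another.
PSME1, chr14:24135944-24136193, strand +: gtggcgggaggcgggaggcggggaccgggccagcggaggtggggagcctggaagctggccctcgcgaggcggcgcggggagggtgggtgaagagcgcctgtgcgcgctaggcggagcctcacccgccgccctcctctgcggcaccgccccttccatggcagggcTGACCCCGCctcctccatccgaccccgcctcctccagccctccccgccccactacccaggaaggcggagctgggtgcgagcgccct
PSME2, chr14:24146611-24146860, strand -: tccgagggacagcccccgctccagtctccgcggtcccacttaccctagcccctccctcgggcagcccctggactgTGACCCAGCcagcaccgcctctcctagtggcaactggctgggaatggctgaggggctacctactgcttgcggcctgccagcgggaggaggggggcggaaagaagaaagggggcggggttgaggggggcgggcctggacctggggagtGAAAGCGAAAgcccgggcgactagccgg
PSMB3, chr17:38752491-38752740, strand +: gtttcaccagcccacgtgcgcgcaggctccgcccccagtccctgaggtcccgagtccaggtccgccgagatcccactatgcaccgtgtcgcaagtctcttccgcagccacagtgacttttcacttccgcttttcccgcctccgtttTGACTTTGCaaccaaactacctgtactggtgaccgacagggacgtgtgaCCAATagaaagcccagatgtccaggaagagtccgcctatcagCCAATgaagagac
PSMD8, chr19:38374321-38374570, strand +: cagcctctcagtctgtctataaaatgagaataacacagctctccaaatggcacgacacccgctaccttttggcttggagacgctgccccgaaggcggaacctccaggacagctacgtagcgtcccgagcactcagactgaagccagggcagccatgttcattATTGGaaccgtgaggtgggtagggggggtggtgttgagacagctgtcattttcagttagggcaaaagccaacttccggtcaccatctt

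PSME1 and PSME2 each held TGACNNNGC, 86 and 175 bases before the start, and PSME2 also held the interferon response core at 28 bases. PSMB3 held TGACNNNGC at 104 bases and CCAAT at 55 and 13 bases, and PSMD8 held CCAAT on the opposite strand (printed as ATTGG) at 88 bases. Of the members, 29 had an entry in the RefSeq table of start sites, with 35 start regions. PSMA7, PSMB1, PSMB6, PSMB7, PSMD4 and PSMG3 had none and were not searched. TGACNNNGC was in 9 of these regions (25.7%), against 10.9% of all 35116 regions of the same length. CCAAT was in 14 (40.0%), against 32.0%, and the interferon response core in 4 (11.4%), against 3.02%. The 9 genes with TGACNNNGC were PSMA4, PSMB3, PSMD3, PSMD9, PSMD12, PSME1, PSME2, PSME4 and PSMG1. A match is a description of letters and not a bound site.

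Among the 34 members, PSME1 and PSME2 alone passed the threshold between the lines. PSME1 was lower by about 2-fold in both APE1 lines than in the vector line, in the untreated and in the treated cells alike, and PSME2 was higher in the wtAPE1 line. Averaged over both doxycycline states, the subunits of the core, base and lid stayed within 0.36 log2 of the vector line in either APE1 line. Single states differed by more: against the vector line, PSMB6 lay at -0.72 and PSMD4 at 0.72 in untreated wtAPE1 cells, PSMA5 at 0.65 in untreated and PSMB6 at 0.67 in treated ubAPE1 cells. PSME1 and PSME2 encode the alpha and beta subunits that together form the interferon-induced activator ring. Differences were tested with limma over all 6 columns with terms for line and doxycycline, and Benjamini-Hochberg adjustment over all 11619 rows at a threshold of 0.05. The spread came from how unevenly the lines responded to doxycycline, so lines and doxycycline states stood in for replicates. The SE, intervals and p-values thus do not measure the spread between replicates.

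PSME1 stood at 7.95 untreated and 8.01 treated in the vector line, at 6.95 and 7.04 in the wtAPE1 line and at 7.02 and 7.04 in the ubAPE1 line. Both vector samples were high and all 4 APE1-line samples low. How many of all rows separate in this way was not counted, and the comparisons of both APE1 lines share the same vector columns. The difference from the vector line was -0.98 ± 0.18 log2 (SE) in the wtAPE1 line, or 1.98-fold lower (limma adjusted p = 3.41e-06), and -0.95 ± 0.18 in the ubAPE1 line, or 1.94-fold lower (limma adjusted p = 8.41e-06). In the same contrasts 4 of 10 kept kidney and epithelial markers were lower (EPCAM by -2.98 and -2.95 log2) and LHX1 was higher for wtAPE1 (0.57), while ENO2 lay at -2.36 and -2.47 and COL3A1 at 0.74 and 0.64. The part of these cell type markers in the PSME1 difference was not tested. The PSME1 difference was as large in untreated cells (-1.0 and -0.93) as in treated cells (-0.97 and -0.97). Among all rows PSME1 ranked 102 and 107 from the bottom in these 2 differences.

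PSME2 stood at 6.53 and 6.76 in the vector line, at 7.28 and 7.31 in the wtAPE1 line and at 6.42 and 7.07 in the ubAPE1 line. The wtAPE1 samples were the 2 highest, and the untreated ubAPE1 sample was the lowest. The wtAPE1 line was higher than the vector line by 0.65 ± 0.18 log2 (SE), or 1.57-fold (limma adjusted p = 0.00903), whereas the ubAPE1 line differed by 0.10 (limma adjusted p = 0.878). Between the APE1 lines PSME2 was -0.55 in the ubAPE1 relative to the wtAPE1 line (unadjusted p = 0.00215 in limma, adjusted p = 1), a difference of -0.86 in untreated and -0.23 in treated cells. On the values as deposited, the difference between wtAPE1 and vector lines was 0.47 and did not pass (limma adjusted p = 0.202).

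In the wtAPE1 line, 1 member was higher and 1 lower than in the vector line, which is 2.94% of the 34 in each direction, against 1.62% of all rows higher and 4.03% lower. In the ubAPE1 line 0 were higher and 1 was lower, against 1.08% and 3.55% of all rows. These shares are near those of all rows. At an unadjusted p under 0.05 in limma there were 4 members (11.8%, against 20.5% of all rows) and 3 (8.82%, against 13.6%). For PSME1, the spread of its own row around the fit was 0.0273 log2, under the spread of 0.178 that limma set for every row alike, and for PSME2 it was 0.226. With each row tested on its own spread, which leaves 2 residual degrees of freedom, 0 rows of the whole table passed in either contrast and PSME1 had adjusted p = 0.324 and adjusted p = 0.288.

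The other activators did not pass. PSME4, a large nuclear activator linked to histone turnover, stood at 7.51 and 7.73 in the vector line, at 7.21 and 7.21 in the wtAPE1 line and at 7.50 and 6.97 in the ubAPE1 line. The untreated ubAPE1 sample was level with the untreated vector sample, while the treated one was the lowest of the 6. Its differences from the vector line were -0.41 and -0.38 (limma adjusted p = 0.167 and 0.290), and the first passed when the ubAPE1 line was left out (adjusted p = 0.0257). PSME3, a nuclear activator, lay between 9.07 and 9.28 in all samples. PSMF1, a core inhibitor and assembly regulator, lay at 8.11 and 8.21 in the vector line and between 8.29 and 8.60 in the APE1 lines, with differences of 0.26 and 0.34 that did not pass (limma adjusted p = 0.401 for each).

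**Figure D1:**
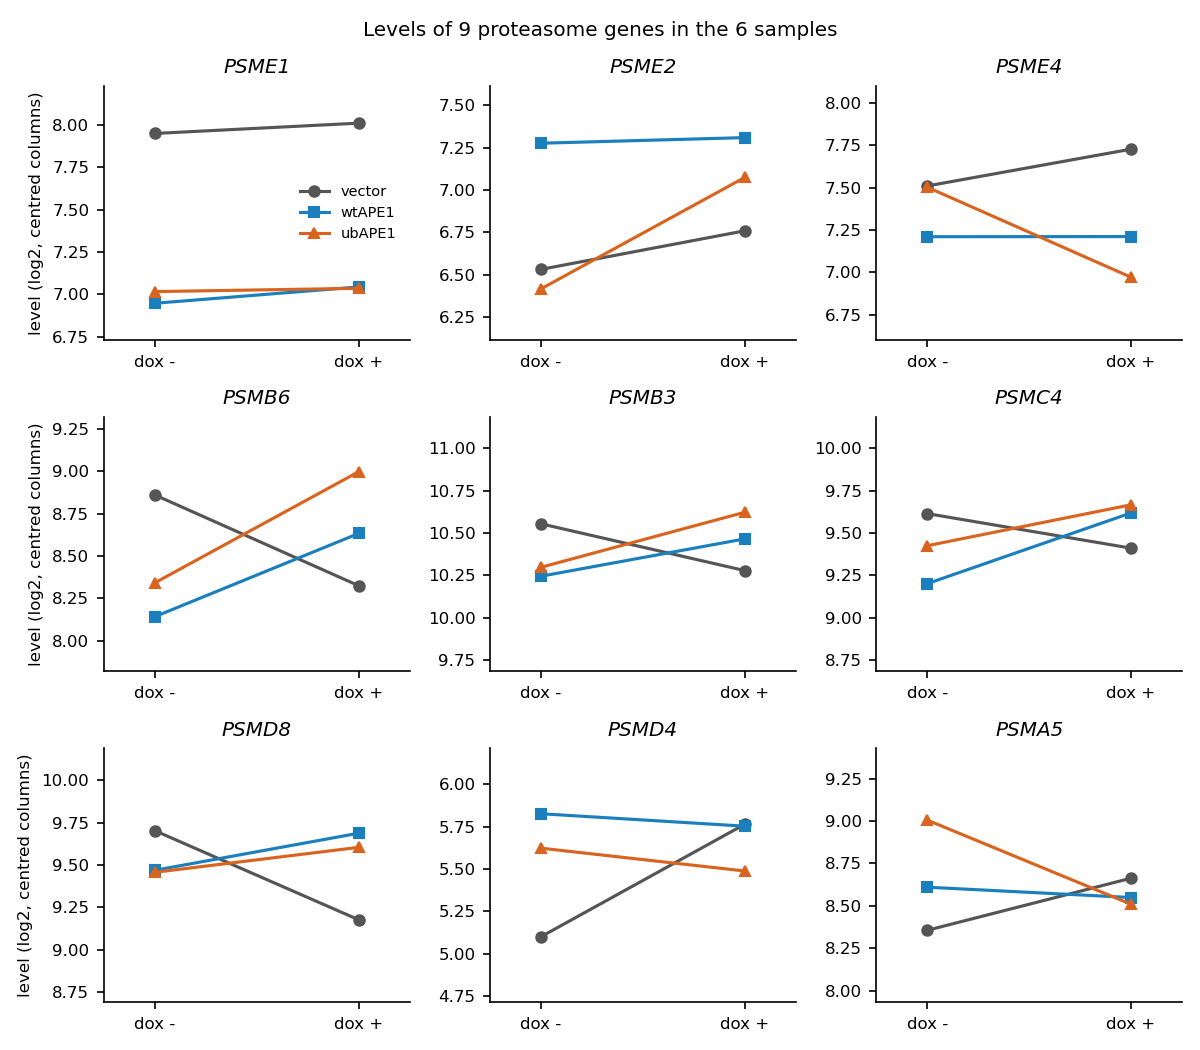
Levels of 9 proteasome genes (log2, columns shifted to a common median; 1 averaged column per point) without (dox -) and with (dox +) doxycycline in the vector, wtAPE1 and ubAPE1 lines; every panel spans 1.5 log2. PSME1 is high in both vector samples and low in the other 4, and PSMB6 goes down in the vector line (8.86 to 8.32) and up in the APE1 lines (8.14 to 8.63 and 8.34 to 9.0).

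None of the core, base, lid and assembly genes passed the threshold between the lines. The SE of a difference was 0.18 log2 for every row, and the 95% interval was thus the value ± 0.35. Over all 34 members the median difference was -0.04 log2 for the wtAPE1 line and 0.07 for the ubAPE1 line relative to the vector line, beside 0.03 and 0.03 over all kept rows. The members that did not pass ranged from -0.41 (PSME4) to 0.36 (PSMD4) in the wtAPE1 line and from -0.38 (PSME4) to 0.39 (PSMD10) in the ubAPE1 line. The intervals of these PSME4, PSMD4 and PSMD10 values left out 0, but none passed after adjustment in limma. The limma adjusted p was 0.167 and 0.290 for PSME4, 0.231 for PSMD4 and 0.275 for PSMD10.

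By class, the alpha ring had medians of -0.07 and 0.00336, the standard beta ring -0.06 and 0.08, the base ATPases -0.10 and 0.07, and the lid -0.04 and 0.06 log2 in the wtAPE1 and ubAPE1 lines. On the values as deposited each of these class medians was below 0 in both lines, so the sign in the ubAPE1 line depends on the scaling. Between the APE1 lines, 28 of 34 members were higher in the ubAPE1 line, against 5640 of all 11619 kept rows. The median was 0.10 log2 beside -0.00414 over all kept rows. The median was 0.15 in untreated and 0.00564 in treated cells. No member passed there (limma, 0 of 34, with 1 at an unadjusted p under 0.05, against 0.904% of all rows, and 0.00861% of all rows past the adjusted threshold in the lower direction and 0% in the higher).

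**Figure D2:**
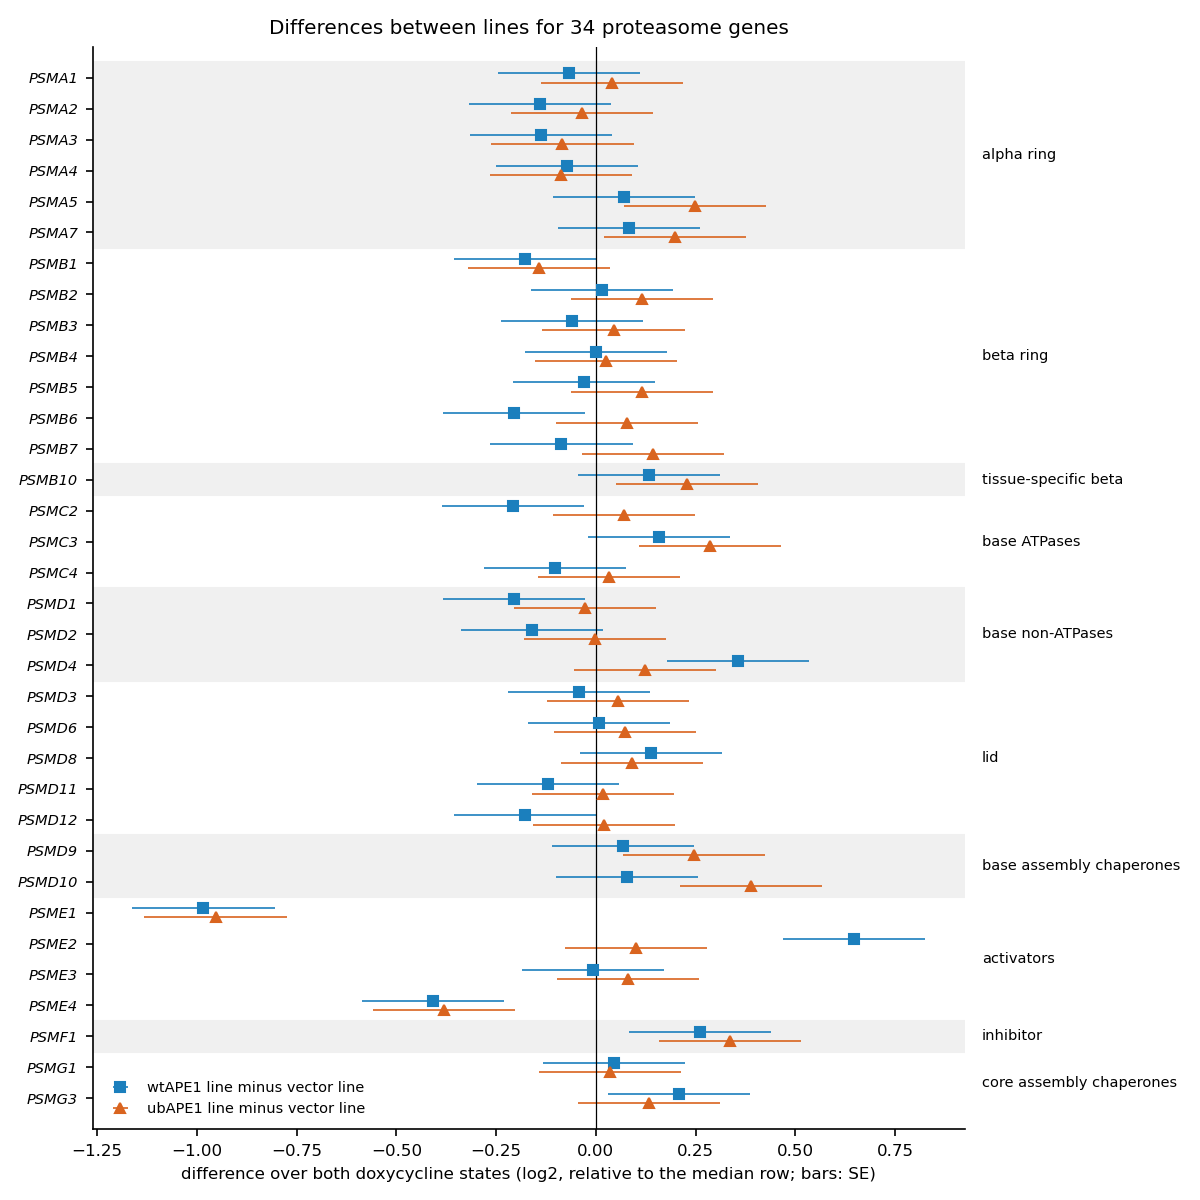
Difference of the wtAPE1 and ubAPE1 lines from the vector line over both doxycycline states (log2, relative to the median row) for the 34 kept members, grouped by class; bars are SE from limma, 0.18 for each row. PSME1 lies at -0.98 and -0.95, PSME2 at 0.65 in the wtAPE1 line, and the other members between -0.41 and 0.39.

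The response to doxycycline, the treated minus the untreated column of a line, was then compared between the lines. The members had no common direction. The median response was -0.00526 log2 in the vector line, 0.09 for wtAPE1 and 0.03 for ubAPE1, beside 0.02, -0.01 and 0.04 over all kept rows. In the same order 16, 21 and 19 of 34 members were above 0, against 6264, 5541 and 6342 of all 11619 kept rows. With 1 column per group these responses carry no test, and rows at least 1.5-fold apart (0.58 log2) were counted. In the vector line 1 member was higher by that size (2.94%, against 0.379% of all rows) and 0 lower (0.516% of all rows). In the wtAPE1 line there were 0 in either direction (0.448% and 0.482% of all rows), and in the ubAPE1 line 2 were higher (5.88%, against 1.71%) and 0 lower (2.75% of all rows). On the values as deposited, 8 of 34 responses were above 0 in the ubAPE1 line and 28 in the wtAPE1 line, and by 1.5-fold 0 members were higher and 3 lower in the ubAPE1 line and 2 lower in the vector line (PSMB6 and PSMD8). Without the column shift all rows of a response move by the same amount, and shares of all rows were not counted for this scaling.

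The standard beta ring held the member with the widest swing. PSMB6, the subunit with caspase-like activity, stood at 8.86 untreated and 8.32 treated in the vector line, at 8.14 and 8.63 in the wtAPE1 line and at 8.34 and 9.0 in the ubAPE1 line. The untreated vector sample was high among the untreated samples and the treated vector sample was low among the treated ones, so that the lines changed places. The response was -0.53, 0.49 and 0.65 log2, or 1.45-fold lower, 1.40-fold higher and 1.57-fold higher. PSMB6 ranked 92 from the bottom of 11619 rows in the vector line, and 138 and 101 from the top in the wtAPE1 and ubAPE1 lines. In the ubAPE1 line the response was 0.49 as deposited and 0.41 with the trend over gene length removed, both under 1.5-fold.

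PSMB5 and PSMB7, the subunits with chymotrypsin-like and trypsin-like activity, moved less. PSMB5 stood at 8.59 and 8.59 in the vector line, at 8.58 and 8.54 in the wtAPE1 line and at 8.63 and 8.78 in the ubAPE1 line. PSMB7 stood at 9.90 and 9.69, at 9.66 and 9.75, and at 9.88 and 10.00 in the same order. Of the catalytic genes, PSMB6 alone had responses over 0.21 log2 in size in all 3 lines. PSMB10, the immune counterpart of PSMB7, stood at 5.99 and 6.02 in the vector line, at 6.23 and 6.04 in the wtAPE1 line and at 6.14 and 6.32 in the ubAPE1 line, both vector samples just below the others and the APE1 lines overlapping.

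PSMB3, a structural beta subunit, stood at 10.55 and 10.28 in the vector line, at 10.24 and 10.46 in the wtAPE1 line and at 10.30 and 10.62 in the ubAPE1 line, which is the order seen for PSMB6 at a smaller size. PSMB1, PSMB2 and PSMB4 had responses between -0.18 and 0.21. All 7 standard beta genes were below 0 in the vector response, with a median of -0.18 log2 (6 of 7 with the length trend removed). Of all 11619 kept rows, 5355 were below 0 there. In the wtAPE1 line 4 of 7 were above 0 (median 0.09), and in the ubAPE1 line 5 of 7 (median 0.15). As deposited these counts were 7 and 3, so the direction in the APE1 lines depends on the scaling.

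The alpha ring, which forms the gate of the barrel, gave another picture. In the ubAPE1 line 5 of its 6 measured genes were below 0, with a median of -0.25 log2, against 5277 of all 11619 kept rows. As deposited all 6 were below 0. PSMA5 stood at 8.36 and 8.66 in the vector line, at 8.61 and 8.55 in the wtAPE1 line and at 9.01 and 8.51 in the ubAPE1 line. The untreated ubAPE1 sample stood alone at the top and the treated samples of all lines lay within 0.15 log2 of each other. PSMA2 stood at 7.28 and 7.0, at 7.08 and 6.92 and at 7.36 and 6.86, lower with doxycycline in each line. PSMA4 stood at 10.69 and 10.43, at 10.33 and 10.66 and at 10.53 and 10.42, lower with doxycycline in the vector and ubAPE1 lines and higher in the wtAPE1 line. PSMA3 had responses of -0.01, 0.04 and -0.40, PSMA1 of 0.03, 0.29 and -0.08, and PSMA7 of 0.11, -0.09 and 0.04.

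In the regulatory particle, PSMD4 and PSMD8 went furthest. PSMD4, a ubiquitin receptor of the base, stood at 5.10 untreated and 5.76 treated in the vector line, at 5.83 and 5.75 in the wtAPE1 line and at 5.62 and 5.49 in the ubAPE1 line. The untreated vector sample alone was low, and its level is close to the filter at 5.03. Its vector response of 0.66 log2, or 1.58-fold, ranked 23 from the top of all rows. The scaffold genes of the base, PSMD1 and PSMD2, had vector responses of 0.24 and 0.31, wtAPE1 responses of 0.19 and 0.34 and ubAPE1 responses of -0.28 and -0.10. PSMD1 stood at 8.69 and 8.93 in the vector line, at 8.51 and 8.70 in the wtAPE1 line and at 8.92 and 8.65 in the ubAPE1 line. PSMD2 stood at 7.90 and 8.21 in the vector line, at 7.73 and 8.07 in the wtAPE1 line and at 8.10 and 8.0 in the ubAPE1 line. All 3 of these base genes were thus above 0 in the vector line and below 0 in the ubAPE1 line, under each of the 4 scalings tried. On the shifted columns 11.8% of all rows had the 3 signs of PSMD4, and 16.4% those of PSMD1 and PSMD2. ADRM1, a base gene outside the member rule, went the other way, with responses of -0.27, 0.10 and 0.48 log2 in the vector, wtAPE1 and ubAPE1 lines.

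PSMD8, a lid subunit, stood at 9.70 and 9.18 in the vector line, at 9.47 and 9.69 in the wtAPE1 line and at 9.46 and 9.60 in the ubAPE1 line. The treated vector sample was the lowest of the 6 and the untreated vector sample the highest, level with the treated wtAPE1 sample. Its responses were -0.53, 0.22 and 0.15 log2, the last of which was -0.02 as deposited. Of the 5 lid genes among the kept members, 4 were below 0 in the vector line (PSMD3, PSMD8, PSMD11 and PSMD12) and 4 above 0 in the wtAPE1 line. Of all 11619 kept rows these were 5355 and 5541. PSMD11, which clamps lid and core together, had responses of -0.04, 0.37 and 0.10, and PSMD3 of -0.20, 0.11 and 0.17. PSMD6 (0.11, 0.11 and -0.09) and PSMD12 (-0.27, -0.02 and -0.22) were the other lid members. Lid genes outside the member rule are not in these counts.

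Among the ATPases, PSMC4 stood at 9.61 and 9.41 in the vector line, at 9.20 and 9.62 in the wtAPE1 line and at 9.43 and 9.67 in the ubAPE1 line. PSMC2 stood at 8.66 and 8.91, at 8.70 and 8.46 and at 9.04 and 8.67, the opposite signs in each line. The ATPases occupy neighbouring places in 1 ring, and PSMC3 (responses of 0.01, 0.28 and 0.04) followed neither. The base assembly chaperone PSMD10, also called gankyrin, stood at 8.40 and 8.01, at 8.41 and 8.16 and at 8.55 and 8.64, low in the treated vector sample and high in both ubAPE1 samples. PSMD9, another of these chaperones, had responses of 0.09, -0.08 and 0.10. The core assembly chaperones PSMG1 (-0.14, 0.09 and 0.03) and PSMG3 (-0.01, -0.16 and -0.18) had small ones.

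**Figure D3:**
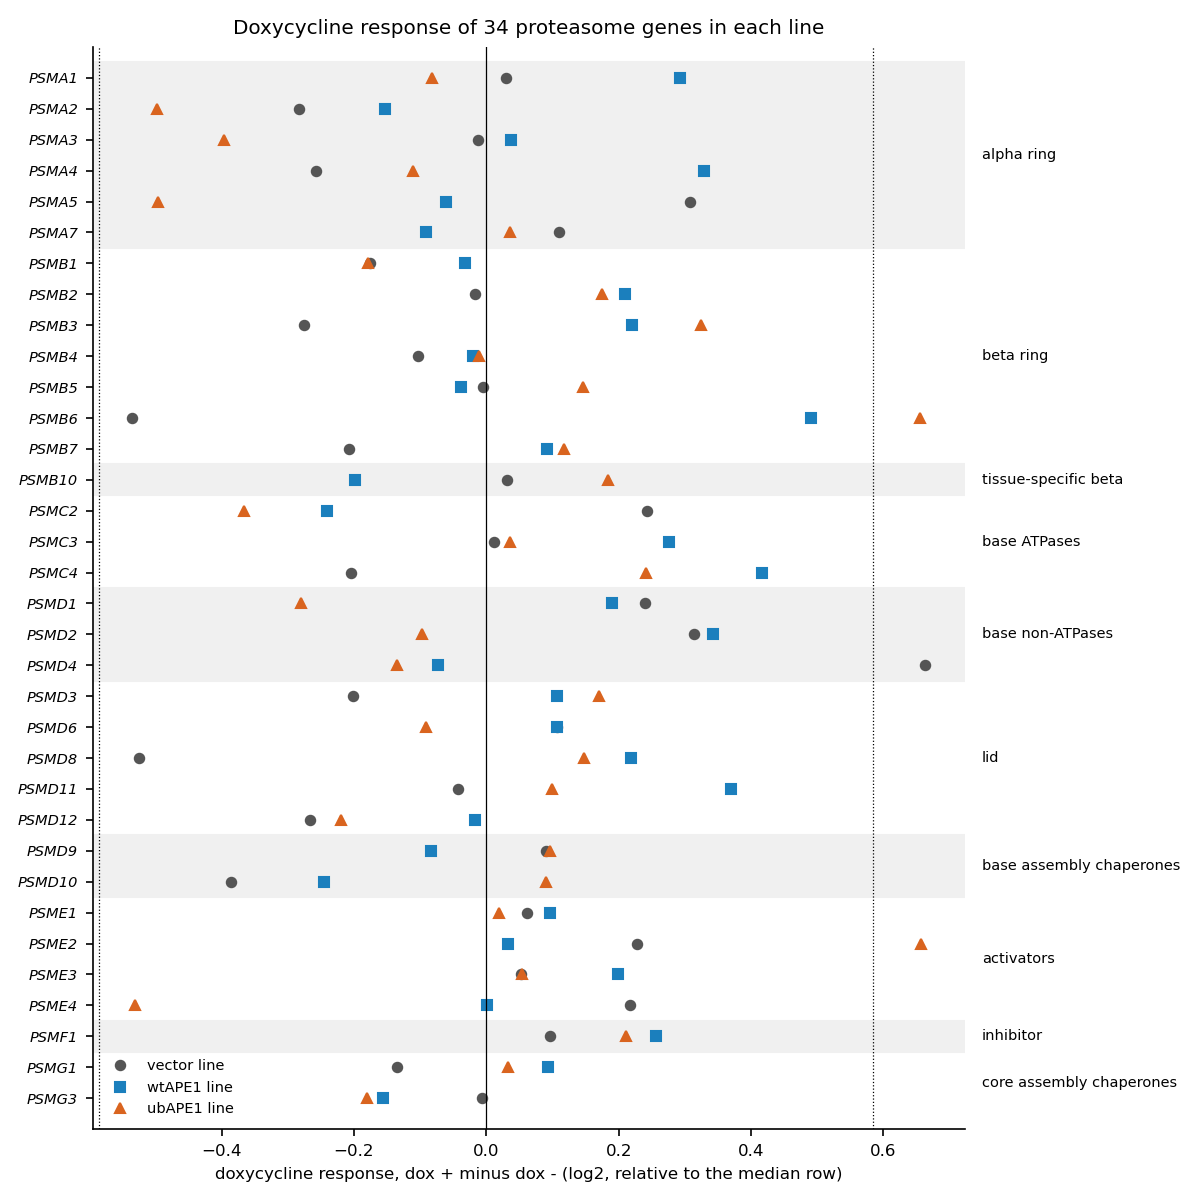
Doxycycline response (dox + minus dox -, log2 relative to the median row) of the 34 kept members in the vector, wtAPE1 and ubAPE1 lines, grouped by class; 1 value per line, dotted lines at 1.5-fold. The 7 standard beta genes lie below 0 in the vector line, PSMB6 spans -0.53 to 0.65, and PSMD4 in the vector line and PSMB6 and PSME2 in the ubAPE1 line lie past 1.5-fold.

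The response of each APE1 line minus the vector response was taken next. Each rests on 1 vector line with 1 averaged column per state. Induced APE1 therefore cannot be told apart from other differences between the lines. The fall of PSMB6 (-0.53) and the rise of PSMD4 (0.66) in the vector line enter these values. Both differences subtract the same vector columns and are therefore given side by side only. PSMB6 gave 1.03 log2 (2.04-fold) for wtAPE1 and 1.19 (2.28-fold) for ubAPE1, ranks 15 and 14 from the top of 11619 rows. PSMD8 gave 0.74 and 0.67, and PSMD4 gave -0.74 and -0.80. In the wtAPE1 line 4 members were at least 1.5-fold higher (11.8%, against 2.09% of all rows), PSMA4, PSMB6, PSMC4 and PSMD8, and PSMD4 was lower (2.94%, against 1.82%). In the ubAPE1 line 3 were higher (8.82%, against 4.64%), PSMB3, PSMB6 and PSMD8, and 4 lower (11.8%, against 8.31%), PSMA5, PSMC2, PSMD4 and PSME4. Of the higher ones in the ubAPE1 line, only PSMB6 stayed at least 1.5-fold higher on the values as deposited, with 5 lower, and with the length trend removed, with 3 lower. In the wtAPE1 line 2 stayed higher after quantile normalization, PSMB6 and PSMD8. The shares of all rows under these other scalings were not counted.

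The median member gave 0.14 log2 for wtAPE1 and 0.03 for ubAPE1, beside -0.03 and 0.04 over all kept rows. Of the 34 members, 10 (29.4%) had the same sign of response in all lines, against 15.5% of all rows. This count depends on the scaling. On the values as deposited it held for PSMA2, PSMD10, PSME2, PSMF1 and PSMG3 only. With the length trend removed it held for the same genes without PSMG3. On the shifted columns a further 9 (26.5%) were below 0 in the vector response and above 0 in both APE1 lines, against 11.4% of all rows. They were PSMB2, PSMB3, PSMB6, PSMB7, PSMC4, PSMD3, PSMD8, PSMD11 and PSMG1, members of core, base, lid and assembly alike. On the values as deposited 5 of these were left (PSMB2, PSMB3, PSMB6, PSMC4 and PSMD3). The opposite pattern was seen in 3 members (8.82%, against 11.8% of all rows), PSMA5, PSMC2 and PSMD4, and in 6 with the length trend removed. For the values as deposited and with the length trend removed, shares of all rows were not counted.

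The limma fit with a term for induced APE1 called 0 members and 0 rows of the table, and 3 members (8.82%) had an unadjusted p under 0.05, against 1.88% of all rows. These were PSMB6 at 1.11 ± 0.34 log2 (SE; limma adjusted p = 0.894), PSMD4 at -0.77 and PSMD8 at 0.71 (limma adjusted p = 1.00 for each). This fit has 1 residual degree of freedom. For doxycycline, taken as 1 effect shared by all lines, 0 members were called, against 0.0344% of all rows higher and 0.0430% lower. In that limma fit 2 members (5.88%, against 2.55% of all rows) had an unadjusted p under 0.05, PSME2 at 0.31 and PSMA2 at -0.31 log2, and the 95% interval was the value ± 0.28 for each row.

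Between the APE1 lines, the ubAPE1 response minus the wtAPE1 response was at least 1.5-fold higher for 1 member, PSME2 at 0.62 log2 (2.94%, against 5.78% of all rows), and lower for 0 (6.15% of all rows). On the values as deposited these counts were 0 and 8, PSME2 lay at 0.37, and the 8 were PSMA1, PSMA2, PSMA3, PSMA4, PSMA5, PSMD1, PSMD2 and PSME4. With the length trend removed they were 0 and 2. As deposited all rows move down by the same amount here, and the shares of all rows were not counted under either scaling. On the shifted columns PSMB10 was next highest at 0.38 after PSME2, and PSME4 (-0.53) and PSMD1 (-0.47) were lowest. The median was -0.07 log2. For PSMB6 it was 0.16, and it turned to -0.09 as deposited and to -0.20 with the length trend removed.

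The ubAPE1 response moved with genomic length over the whole table (Spearman rho of -0.41 across 9647 rows with a length), and among the members rho was -0.32 across 34 genes that share the same 2 columns. It was 0.17 in the vector and 0.14 in the wtAPE1 line among the members. The 17 members below the median length of 12380 bases had a median ubAPE1 response of 0.05 log2 with 13 above 0, and the 17 above it -0.13 with 6 above 0. PSMB6 (2332 bases) and PSME2 (3246 bases), the highest in that line, are short, and PSME4 (106925 bases), the lowest, is long. With the length trend removed, 0 members were past 1.5-fold in the ubAPE1 response, and PSMB6 and PSME2 stood at 0.41 and 0.43. The part of length in these responses was not tested further.

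**Figure D4:**
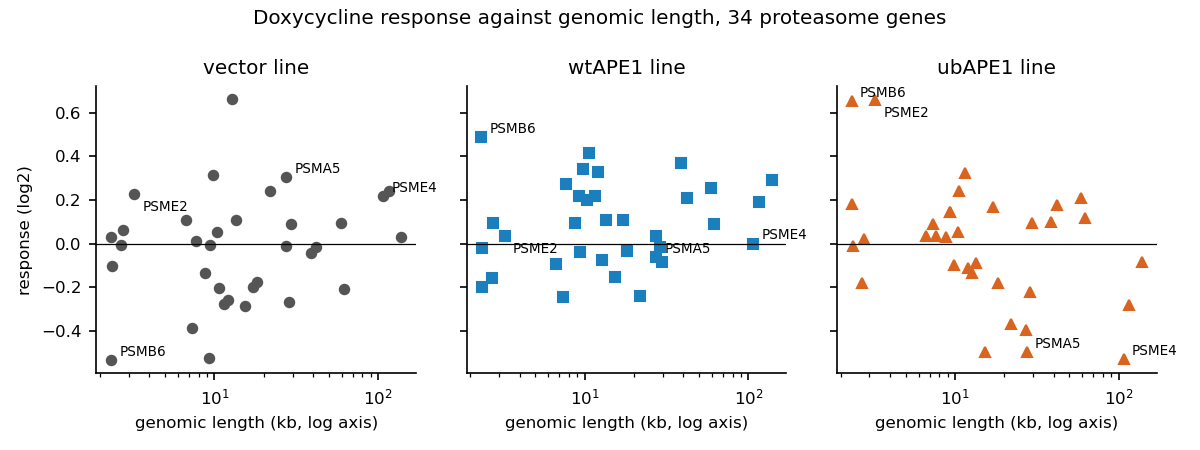
Doxycycline response (log2, relative to the median row) of the 34 kept members against genomic length (kb, log axis) in the vector, wtAPE1 and ubAPE1 lines, 1 point per gene. In the ubAPE1 line short genes such as PSMB6 and PSME2 lie high (0.65 and 0.66) and the long PSME4 lies low (-0.53).

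Of 33 other listed genes of the ubiquitin-proteasome pathway, 26 were measured and passed the filter. Between the lines 1 passed the limma threshold, UBQLN4, a shuttle that carries tagged proteins to the proteasome, which was lower in the ubAPE1 than in the vector line by -0.55 log2 (adjusted p = 0.0454). This 1 of 26 is near the 3.55% of all rows called lower in that contrast. It stood at 8.17 and 7.80 in the vector line, at 8.02 and 7.60 in the wtAPE1 line and at 7.58 and 7.29 in the ubAPE1 line. None passed in the wtAPE1 line, in the comparison of the APE1 lines, for doxycycline or for induction. The list medians against the vector line were -0.08 and -0.04 log2.

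By size, the ubAPE1 response minus the vector response was past 1.5-fold for ADRM1 (0.75), NGLY1 (-0.84) and PAAF1 (-0.69). This 1 higher and 2 lower of 26 are no larger shares than the 4.64% and 8.31% of all rows. ADRM1 is a ubiquitin receptor of the base, NGLY1 a deglycosylase that processes NFE2L1, and PAAF1 a base assembly chaperone. ADRM1 stood at 9.66 and 9.39 in the vector line, at 9.59 and 9.68 in the wtAPE1 line and at 9.32 and 9.80 in the ubAPE1 line, the order of signs also seen for PSMB6. USP14, a deubiquitinase of the regulatory particle, gave -0.65 in the ubAPE1 response minus the wtAPE1 response, 1 of 26 against 6.15% of all rows. NFE2L1 itself lay between 7.90 and 8.12 in all samples, and the core assembly factor POMP between 9.0 and 9.29. UBB, which encodes ubiquitin, stood at 12.01 and 11.99 in the vector line, at 12.29 and 12.08 in the wtAPE1 line and at 12.12 and 12.36 in the ubAPE1 line. The treated ubAPE1 sample was thus the highest.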

How the data were processed

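RNA of 6 groups was hybridised to Affymetrix whole-transcript arrays, and the authors deposited 1 column of log2 values per group, averaged over 3 biological replicates per the labels. The scale was inferred from the range of the values; how signals were corrected, summarised, normalized or filtered is not given in the sources used here. Per the submitters' processing notes the build is hg 18. The gene table is of GRCh38.p14, so no array coordinates are given.

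Of 15492 rows, 12616 had 1 symbol, 2031 several and 845 none. All 35 members matched the gene table by ID, and 0 symbols changed. Rows with a mean at or above the 25th percentile were kept and each column was shifted to a common median over them.

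limma (version 3.58.1, R 4.3.3; lmFit, eBayes) was fitted in 2 ways: on line and doxycycline, leaving 2 residual degrees of freedom, and with APE1 induction added, leaving 1. The prior degrees of freedom were infinite in both, so every row shares 1 SD (0.178 and 0.195 log2). With this shared SD a p-value follows the size of a row's difference and not that row's own spread. Genes with values in every sample were PSMB6, members past a threshold or past 1.5-fold, the 2 highest and lowest per comparison and the catalytic pairs. Of the pathway list, members past a threshold or past 1.5-fold are named, and ubiquitin, NFE2L1 and POMP were added after their values were seen. Members and lists were chosen with earlier results of these data known. Alternatives were other row filters, values as deposited, quantile normalization, removal of the median trend in 20 bins of genomic length, 1 row per gene, an intensity trend with robust eBayes, no line term, each line left out and 1 doxycycline state. Each row's own spread was added after seeing the data.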

Additional observations from a re-analysis of the deposited data

Results flagged for a closer look

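These responses had opposite signs in the vector line and an APE1 line and lay at least 1.5-fold apart. Each rests on 1 column per group, so the difference was not tested for the single lines, and the joint limma test of both APE1 lines passed for no row. In the wtAPE1 line minus the vector line they were PSMB6 (1.03 log2), PSMD8 (0.74), PSMC4 (0.62), PSMA4 (0.59) and PSMD4 (-0.74). In the ubAPE1 line minus the vector line they were PSMB6 (1.19), PSMD8 (0.67), PSMB3 (0.60), PSMA5 (-0.80), PSMD4 (-0.80), PSME4 (-0.75) and PSMC2 (-0.61). PSMB6, PSMD8 and PSMD4 appear in both and share the vector columns.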

How the results depend on the processing

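The fall of PSME1 in both APE1 lines passed under every alternative but each row's own spread. Its difference lay between -1.17 and -0.95 in the wtAPE1 line and between -1.06 and -0.92 in the ubAPE1 line. The count of members past the threshold in the wtAPE1 line, 2 as reported, was 1 on the values as deposited and 0 with each row's own spread, where the count in the ubAPE1 line was also 0. The counts for doxycycline, for the ubAPE1 against the wtAPE1 line and for induction were 0 under every alternative run. On the values as deposited, the median member response was -0.13 in the ubAPE1 line, 0.28 for the wtAPE1 minus the vector response and -0.33 for the ubAPE1 minus the wtAPE1 response, and the median difference of the wtAPE1 from the vector line was -0.21. With the length trend removed, the ubAPE1 response was -0.12 and the ubAPE1 minus the wtAPE1 response -0.26. All other medians stayed within 0.146 log2, the median residual SD, of the reported value, but some changed sign. The difference of the wtAPE1 from the vector line was -0.13 in untreated and 0.05 in treated cells, and 0.0018 after quantile normalization. As deposited, the ubAPE1 minus the vector line was -0.04 and the ubAPE1 minus the vector response -0.07, the latter -0.05 with the length trend removed, where the vector response was 0.00694. For induction, leaving out an APE1 line leaves no residual degrees of freedom, so no count is given. No paired analysis was possible because each group is 1 averaged column with no replicate numbers. Array signal over background is unknown, so low rows such as PSMB8 and PSMD4 in the untreated vector sample are the least certain.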
